A study of Mus musculus with 8 samples.

Results

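The 9 genes described here form the core of MHC class II antigen presentation: the chains H2-Aa, H2-Ab1 and H2-Eb1, the invariant chain Cd74, the peptide editor H2-DMa and H2-DMb1, its modulator H2-Oa and H2-Ob, and the transactivator Ciita. They were taken as a named list, and every non-control probe whose transcript accession belongs to one of them was used. Of the 9 genes, 8 had a probe on the array and all 8 passed the filter on dim probes. They were read by 13 probes of 41174, and the 8 genes stand among 20879 genes tested. No probe was matched to H2-Eb1, which was not analysed here.

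The arrays hold RNA of tumour-associated macrophages, sorted as F4/80+ CD45+ cells from PyMT mammary tumours about 21 days after orthotopic implantation into C57BL/6 mice. In 4 samples the host was labelled an ATF3 knockout (KO) and in the other 4 wild type (WT), so the label describes the host, while implanted PyMT cells of the same kind were used in both. KO and WT samples carry the same numbers, 1 to 4. The labels do not say whether samples came from separate mice or pools, so each p-value measures only the spread between these samples, which may be technical. The sources used here do not state how the ATF3 allele was made or whether it is lost in all host cells.

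MHC class II molecules present peptides from endocytosed protein to CD4+ T cells. The alpha and beta chains assemble in the endoplasmic reticulum around the invariant chain, lysosomal proteases trim that chain to a short peptide, and the DM dimer exchanges this peptide for an antigenic one while the DO dimer modulates DM. Ciita, induced in macrophages by interferon gamma, binds no DNA itself and is recruited by a complex of RFX, CREB and NF-Y proteins to the conserved X and Y boxes of class II promoters. C57BL/6 mice are known to lack surface I-E because their H2-Ea gene is defective, so I-A, made of the H2-Aa and H2-Ab1 products, is their classical class II molecule.

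The promoter stretches below are shown because these genes are known for the shared X and Y boxes through which Ciita acts. RefSeq promoter windows of build GRCm38.p6, each covering 250 bases before to 50 after a gene start, were searched for an X-like motif, CNNGNAAC, followed 10 to 40 bases later by the Y-like motif ATTGG. The motif was written with the members' windows in view. The stretches run 5′ to 3′ on the strand of the gene, with 10 flanking bases on either side, and capitals mark both motifs.
H2-Aa, chr17:34287857-34287917, minus strand: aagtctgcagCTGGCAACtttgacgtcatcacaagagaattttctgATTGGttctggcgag
H2-Eb1, chr17:34305763-34305822, plus strand: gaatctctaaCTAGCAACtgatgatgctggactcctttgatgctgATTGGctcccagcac
H2-DMb1, chr17:34153084-34153144, plus strand: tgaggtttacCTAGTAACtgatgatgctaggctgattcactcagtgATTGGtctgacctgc
H2-Oa, chr17:34092290-34092350, plus strand: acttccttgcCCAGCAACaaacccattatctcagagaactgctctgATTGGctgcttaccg
H2-Ob, chr17:34238805-34238862, plus strand: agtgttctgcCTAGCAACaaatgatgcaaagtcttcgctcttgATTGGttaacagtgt
The gap between the motifs was 28 bases in H2-Aa, H2-DMb1 and H2-Oa, 27 bases in H2-Eb1 and 25 bases in H2-Ob. The X-like motif began 79 to 97 bases before the start in these windows, and the Y-like motif 43 to 61 bases before it. The pair on the strand of the gene occurred in 215 of 32851 windows, or 0.654%, and on either strand in 1.3%. Singly, and on either strand, the X-like motif occurred in 39.1% of windows and the Y-like motif in 37.4%. H2-Ab1 and Ciita had no window among those used, and Cd74 is not reported here, so nothing is said of their motifs. Neither of the 2 windows of H2-DMa held the pair, which says only that these letters are not in those windows.

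Levels are log2 values with the 75th percentile of signal of each array set to 0, so that 1 unit is 2-fold, and they can be compared between samples but not between genes. That percentile was 619 to 926 intensity units, and 63.7% to 68.0% of spots were well above background. The sort markers were bright in every sample: Adgre1, which encodes F4/80, averaged 4.07 ± 0.54 in KO and 4.14 ± 0.60 in WT samples, and Ptprc, which encodes CD45, averaged 4.42 ± 0.55 in KO and 4.52 ± 0.54 in WT samples (SD, n = 4 each). Atf3 signal was 5.51, 4.86, 4.96 and 4.88 in the KO samples, against 4.92, 4.99, 4.79 and 4.51 in the WT samples. The KO mean was thus no lower than the WT mean. Whether the single Atf3 probe reads the stretch removed in the knockout is not stated, so it does not check the labels, and every direction below rests on them.

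No class II gene differed between samples labelled KO and WT beyond the spread between samples. With limma and Benjamini-Hochberg adjustment, 0 of the 8 genes passed an adjusted p of 0.05, where 0 of all 20879 genes passed (0%). At an unadjusted p under 0.05 stood 0 of the 8 members and 701 of all genes. The smallest unadjusted p among the members was 0.42, for Cd74. Differences of KO minus WT ran from -0.07 to 0.46 on the log2 scale, with a median of 0.14, against a median of -0.01 over all genes. In 6 of 8 genes the KO mean was the higher, against 48.5% of all genes. That count rests on WT sample 4: without it 1 of 8 was higher in KO, and the median difference was -0.14.

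The KO and WT values overlapped for all 8 members, where 2.13% of all genes had every KO value apart from every WT value. Within same-numbered pairs, H2-DMa, H2-DMb1 and H2-Oa were higher in KO in all 4 pairs, 3 of 8 members against 7.39% of all genes. Sample numbers 1, 3 and 4 paired the samples in the data, and number 2 did so less clearly. With the number as a block the standard errors of the members were 0.11 to 0.25, against 0.22 to 0.64 without it. Even then 0 of 8 members passed, with adjusted p from 0.72 to 0.98, and 0 had an unadjusted p under 0.05. The 95% interval lay within a 2-fold change in either direction for 5 of 8 members without the block and for 7 of 8 with it, the exception being H2-Oa. Over all genes these shares were 51.4% and 65.1%.

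**Figure D1:**
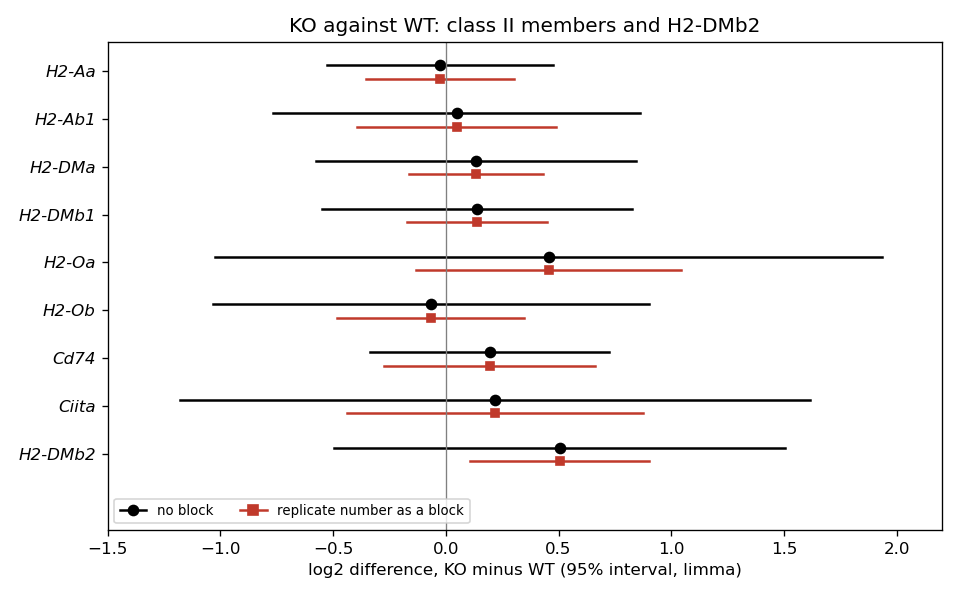
Log2 difference of KO minus WT for the 8 class II members and the related gene H2-DMb2, each with its 95% interval from limma without a block (black) and with the sample number as a block (red). The 8 members' intervals include 0 in both fits, and the blocked interval of H2-DMb2 runs from 0.11 to 0.90 although its adjusted p was 0.63.

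H2-Aa encodes the alpha chain of I-A, at chr17:34282744-34287823 of GRCm38.p6. Its level was 6.51, 6.19, 6.52 and 5.94 in KO samples 1 to 4, against 6.47, 6.46, 6.43 and 5.91 in WT samples 1 to 4. Sample 4 was the lowest of either genotype, and the groups overlapped over nearly their whole range. The means were 6.29 ± 0.28 in KO and 6.32 ± 0.27 in WT samples (SD, n = 4 each), a difference of -0.03 (standard error, SE, 0.22), with a 95% interval from -0.53 to 0.47 (limma adjusted p = 0.9999). The second H2-Aa probe gave a difference of -0.03 as well.

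H2-Ab1 encodes the beta chain of I-A and lies beside it at chr17:34263227-34269418. In KO samples its level was 6.99, 6.44, 6.75 and 5.97, and in WT samples 6.89, 6.85, 6.62 and 5.60. Both samples numbered 4 lay below the other 6, and KO sample 2 was the next lowest. The difference was 0.05 (SE 0.35), with a 95% interval from -0.77 to 0.86 (limma adjusted p = 0.9999). The other H2-Ab1 probes gave 0.04 and 0.03. One of them was printed at 10 spots, whose SD within an array was 0.03 to 0.08, which holds the noise between spots but not that of labelling, hybridisation or scaling between arrays. That probe read 5.85 in KO sample 4 against 6.12 to 6.60 in the other KO samples, and 5.53 in WT sample 4 against 6.31 to 6.55 in the other WT samples.

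Cd74 encodes the invariant chain, the chaperone that fills the groove of new class II molecules and sorts them to endosomes. Its processed intensity was 127320, 132561, 141616 and 99573 units in the KO samples, against 89049, 118368, 97378 and 83700 units in the WT samples. As log2 levels these were 7.64, 7.16, 7.43 and 6.99 in KO and 7.17, 7.49, 7.06 and 6.73 in WT samples. KO samples 1, 3 and 4 exceeded their same-numbered WT samples, by 0.47, 0.37 and 0.26, and KO sample 2 lay 0.32 below WT sample 2. The difference was 0.19 (SE 0.23), with a 95% interval from -0.33 to 0.72 (limma adjusted p = 0.9999). Cd74 was the member whose variation followed the sample number least, at 56.8% of its sum of squares, with 12.2% following genotype.

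**Figure D2:**
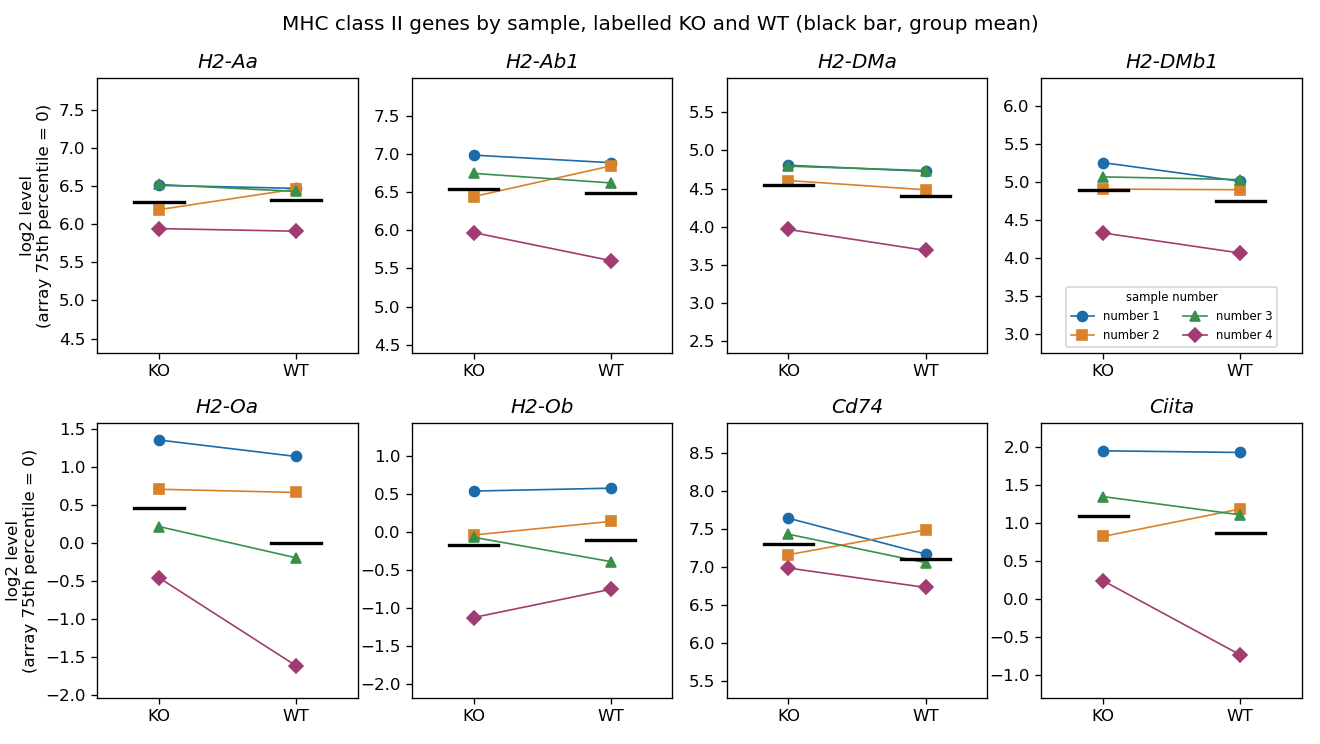
Log2 level of each class II gene in the 4 KO and 4 WT samples, relative to each array's 75th percentile, with same-numbered samples joined by a line, black bars at the group means and axes of equal span. Sample 4 is the lowest in both groups for all 8 genes, and the KO and WT values overlap for each.

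H2-DMa and H2-DMb1 encode the DM dimer, which removes the invariant chain peptide and edits the peptide bound. H2-DMa, at chr17:34119693-34139101, had levels of 4.81, 4.61, 4.79 and 3.96 in KO samples, against 4.73, 4.48, 4.74 and 3.69 in WT samples. Each KO sample lay above its same-numbered WT sample, by 0.06 to 0.28, and both samples numbered 4 lay well below the rest. The difference was 0.13 (SE 0.31), with a 95% interval from -0.58 to 0.84 (limma adjusted p = 0.9999). With the sample number as a block its standard error was 0.11 and its adjusted p 0.82.

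H2-DMb1, at chr17:34153191-34160229, had levels of 5.25, 4.91, 5.07 and 4.33 in KO samples and 5.01, 4.90, 5.03 and 4.07 in WT samples. The order of samples was again number 4 lowest, and in pairs 2 and 3 KO exceeded WT by only 0.01 and 0.04. The difference was 0.14 (SE 0.30, limma adjusted p = 0.9999). Its second probe gave a difference of 0.05 and was lower in KO in pairs 1 and 2, so the direction in every pair held for 1 of its 2 probes. Without WT sample 4 the differences of H2-DMa and H2-DMb1 were -0.11 and -0.09.

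H2-Oa and H2-Ob encode the DO dimer, a modulator of DM known chiefly from B cells and also found in dendritic cells. H2-Oa, at chr17:34092379-34095234, had levels of 1.35, 0.70, 0.21 and -0.46 in KO samples, against 1.13, 0.66, -0.20 and -1.61 in WT samples. Its values spread over nearly 3 units, with WT sample 4 the lowest and the groups overlapping. The difference was 0.46, the highest among the members, equal to a 1.37-fold level in KO with a 95% interval from 0.49-fold to 3.82-fold (limma adjusted p = 0.9999). With the block its unadjusted p was 0.10 and its adjusted p 0.72. Of its 4 pair differences, 0.22, 0.04, 0.41 and 1.16, the last came from the samples numbered 4, and without WT sample 4 the difference was -0.08. The second H2-Oa probe gave 0.40 and was lower in KO in pair 2.

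H2-Ob, at chr17:34238905-34245908, had levels of 0.53, -0.04, -0.07 and -1.13 in KO samples and 0.57, 0.13, -0.39 and -0.76 in WT samples. KO was lower in pairs 1, 2 and 4 and higher in pair 3. The difference was -0.07 (SE 0.42), with a 95% interval from -1.03 to 0.90 (limma adjusted p = 0.9999). The 2 chains of DO thus had differences of opposite sign, each within its own error.

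Ciita, at chr16:10480014-10531064, had levels of 1.95, 0.82, 1.35 and 0.24 in KO samples, against 1.93, 1.18, 1.11 and -0.73 in WT samples. In processed intensity these were 2463, 1639, 2088 and 928 units in KO and 2353, 1500, 1576 and 474 units in WT samples. Samples numbered 1 were the highest of either genotype and samples numbered 4 the lowest. The difference was 0.22 (SE 0.60), with a 95% interval from -1.18 to 1.61 (limma adjusted p = 0.9999), so a 2-fold change in either direction lies within the interval. With the block the standard error was 0.25 and the interval stayed within 2-fold.

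Other class II genes were H2-DMb2 and H2-Eb2, and H2-Ea was not matched to a probe. H2-DMb2, a beta chain gene next to and closely similar to H2-DMb1, had levels of 2.16, 1.83, 1.34 and 0.71 in KO samples, against 1.40, 1.52, 1.11 and -0.01 in WT samples. KO was higher in all 4 pairs, by 0.23 to 0.76, and the groups overlapped. The difference was 0.50 (SE 0.43, limma adjusted p = 0.9999), and with the block its unadjusted p was 0.02 and its adjusted p 0.63. Signal may be shared between H2-DMb1 and H2-DMb2 because of their similarity, which was not tested. H2-Eb2 was dim, well above background in 3 KO and 3 WT samples, with KO sample 1 at -1.41 and the other 7 at -3.52 or lower.

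The class II genes varied together across the samples, and mostly with the sample number. All 8 members were lowest in KO sample 4 among KO samples and in WT sample 4 among WT samples. The same held with quantile normalization, with bright probes as scale and in the deposited table, and with normexp background correction for 8 members in KO and 6 in WT. The sample number took a median of 90.6% of the members' sums of squares, from 56.8% for Cd74 to 96.0% for H2-DMa, against a median of 66.3% over all genes and 42.9% from its degrees of freedom alone. Slide 1 carried the samples numbered 1 and 2, and slide 2 those numbered 3 and 4, so number and slide cannot be fully told apart. Within slide 1 alone 4 of 8 members were higher in KO, with a median difference of -0.02, and within slide 2 alone 7 of 8, with a median of 0.21.

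Markers of other cells moved with the number too. Of 12 macrophage markers, 11 were tested, and their summed linear level, in multiples of each array's 75th percentile, was 273 to 507 in KO and 269 to 510 in WT samples, lowest in sample 4 of both. Of 8 markers of tumour epithelium, all 8 were tested, and their summed level was 39.6, 87.7, 13.5 and 120 in KO samples, against 43.0, 87.1, 12.9 and 120 in WT samples. The samples numbered 4, lowest in every class II member, were thus the highest in epithelial and the lowest in macrophage signal. The number took a median of 99.3% of the epithelial markers' sums of squares and 95.3% of the macrophage markers'. The epithelial marker Cldn4 was dim, with a mean log2 level of -4.33 in KO and -4.33 in WT samples. The part of these markers' cells in the class II pattern was not tested, and in bulk RNA fewer cells of a type and less RNA per cell cannot be told apart.

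**Figure D3:**
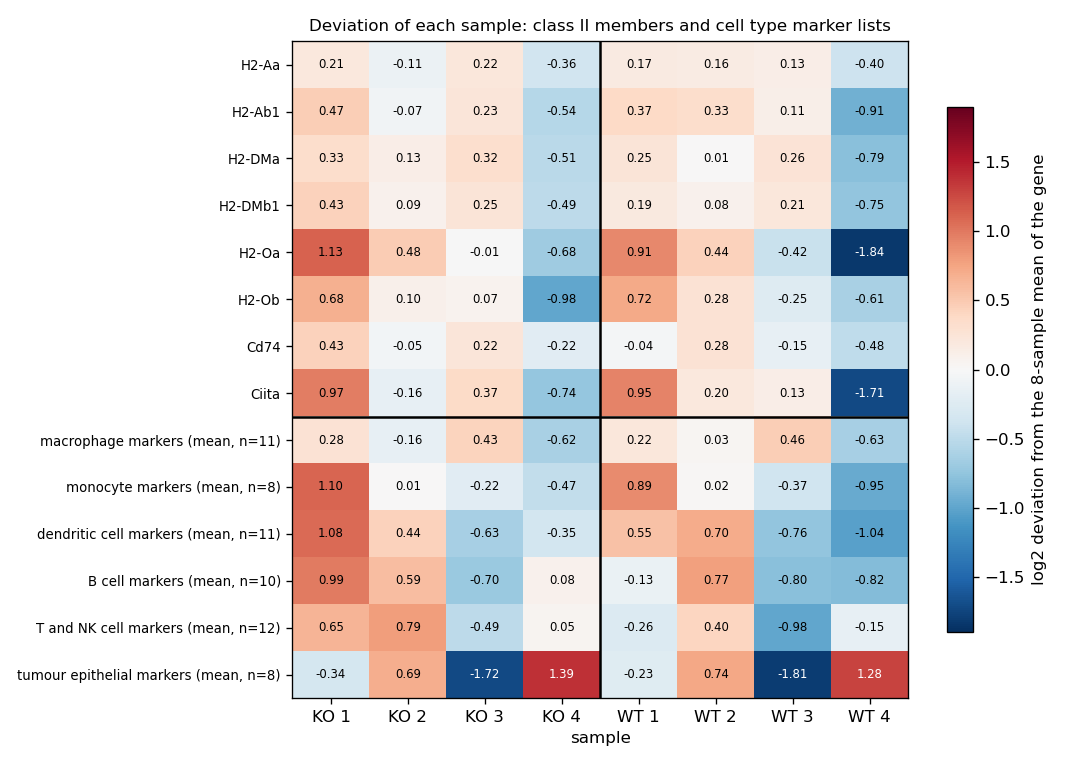
Deviation of each sample from the 8-sample mean on the log2 scale, KO samples left of WT samples, for the 8 class II genes and for the mean of 6 cell type marker lists. Sample 4 of both genotypes is blue (low) in the class II and macrophage rows and red (high) in the epithelial row, while sample 3 is the lowest in the epithelial row.

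Between members, Pearson's r over the 8 samples was positive for all 28 pairs, from 0.73 to 0.99 with a median of 0.86. Within genotype it ran from 0.74 to 0.99. These coefficients describe 8 samples that share slides and sample numbers. The highest was that of H2-DMa with H2-DMb1, at 0.99, and Ciita with H2-Ab1 reached 0.97. Setting each array's scale by the mean of the 11 macrophage markers, an alternative chosen after the data were seen, separated the members. The range of r widened, from -0.27 to 0.93, with a median of 0.56 and 26 of 28 pairs positive.

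On that macrophage scale the SD over the 8 samples was 0.16 for H2-DMa, against 0.42 on the percentile scale, and 0.24 for H2-Ab1, against 0.49. Ciita kept an SD of 0.58, against 0.89, and H2-Oa one of 0.77, against 0.97, while Cd74 had 0.33, against 0.30. The order of samples changed as well: sample 4 was the lowest for 2 of 8 members in each genotype, H2-Ob and Ciita in KO and H2-Oa and Ciita in WT, and sample 3 was the lowest for the other 6. H2-Aa was then at its highest in the samples numbered 4, at 2.11 in KO and 2.09 in WT. On this scale sample 4 thus stayed the lowest in both genotypes for Ciita only. The scale itself was lowest in the samples numbered 4, at 3.83 in KO and 3.82 in WT. It was highest in those numbered 3, at 4.88 in KO and 4.91 in WT. Taking it off raises sample 4 and lowers sample 3 against the others by construction, so the changed order is no independent finding. With quantile normalization, bright probes as scale and the deposited table, sample 4 stayed the lowest for all 8 members. Differences between KO and WT on this scale ran from -0.03 for H2-Ob to 0.49 for H2-Oa, and 0 genes passed.

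**Figure D4:**
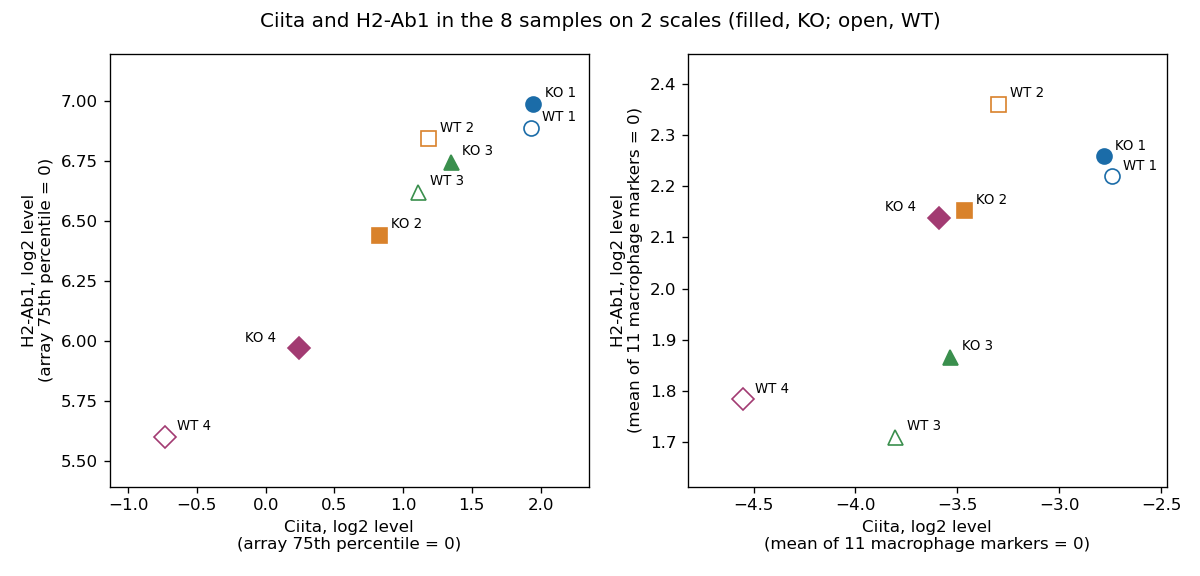
Log2 level of H2-Ab1 against that of Ciita in the 4 KO samples (filled) and 4 WT samples (open), relative to the array's 75th percentile (left) and to the mean of 11 macrophage markers (right). On the left the 8 points run along one line (r = 0.97), and on the right they scatter more (r = 0.74). There both samples numbered 3 and WT sample 4 are low in H2-Ab1, and WT sample 4 is the lowest in Ciita.

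Of the genes that act on class II promoters or upstream of Ciita, 17 were tested and 0 passed in either direction, with 10 higher and 7 lower in KO and a median difference of 0.03. The smallest unadjusted p was that of Creb1, a member of the promoter complex. Its level was -0.01, -0.09, 0.58 and -0.29 in KO samples, against 0.91, 0.14, 0.93 and 0.65 in WT samples, lower in KO in all 4 pairs though the groups overlapped. The difference was -0.61 (SE 0.26, limma adjusted p = 0.9999). Rfxank, an RFX subunit, differed by 0.32 and Nfya, an NF-Y subunit, by -0.23, with the same adjusted p.

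In pattern across samples, 15 of the 17 regulators had a positive r against the mean of H2-Aa, H2-Ab1 and Cd74, taken without the unmeasured H2-Eb1. Their median r was 0.67, against 0.11 over all genes. It was 0.96 for Irf8, a transcription factor of myeloid cells, and 0.94 for the interferon gamma receptor chain Ifngr1. Among genes of RFX subunits, r was -0.23 for Rfx5, 0.07 for Rfxank and 0.68 for Rfxap. Rfx5 was dim, with a mean log2 level of -3.11 in KO and -2.88 in WT samples. The regulators named here were singled out after their values were seen. Each r describes only 8 samples.

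Of 15 genes of class II processing and turnover, 0 passed, with 9 higher and 6 lower in KO and a median difference of 0.02. Cd1d1, a lipid-presenting molecule, differed by 0.70 with a standard error of 0.35, the lysosomal protease Ctsb by -0.18 and the tetraspanin Cd82 by 0.14 (limma adjusted p = 0.9999 for each). Cd1d1 was dim, with a mean log2 level of -2.16 in KO and -2.85 in WT samples. Its pair differences were 0.08, 1.16, -0.02 and 1.58. Ctss, the protease that makes the last cut of the invariant chain in dendritic cells and B cells, had levels of 7.12, 6.72, 7.10 and 6.46 in KO samples, against 6.98, 6.99, 6.90 and 6.38 in WT samples. Its samples stood in nearly the order of the class II chains, with number 4 lowest in both groups.

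Of 7 costimulatory genes tested, 0 passed and 4 were higher in KO. Cd86, a ligand of CD28, had levels of 2.64, 2.31, 3.00 and 1.82 in KO samples and 2.32, 2.33, 2.68 and 1.22 in WT samples, a difference of 0.31 (SE 0.38). Cd274, which encodes the inhibitory ligand PD-L1, differed by -0.12, and the dim Tnfsf4 by 1.54 with a standard error of 1.09. Of 10 genes of alternative activation, 0 passed and 7 were higher in KO, led by the lectin gene Mgl2 with a difference of 0.69, Clec10a with 0.56 and the chitinase-like Chil3 with 0.47. For Mgl2, WT sample 4 stood at -0.07 against 1.92 to 2.55 in the other WT samples.

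Because dendritic cells and B cells carry class II constitutively, their markers were set beside the members. Of 11 dendritic cell markers tested, 0 passed, 7 were higher in KO and the median difference was 0.31. Their summed level was 24.7 to 57.9 in KO and 23.5 to 50.7 in WT samples, a linear sum weighted to its brightest genes. The mean log2 deviation of the list was 1.08, 0.44, -0.63 and -0.35 in KO samples, against 0.55, 0.70, -0.76 and -1.04 in WT samples, lowest in KO sample 3 and WT sample 4. Itgax, the brightest, which macrophages express too, differed by -0.19, Dpp4 by 0.63, the dim Siglech by 0.93 and Batf3 by -0.83. Of 10 B cell markers tested, 0 passed, 7 were higher in KO and the median difference was 0.33. Their summed level was 2.36 to 5.13 in KO and 1.78 to 3.97 in WT samples. Ms4a1, which encodes CD20, differed by 1.66 (SE 0.72), Cxcr5 by 1.56 (SE 0.84), Pax5 by -0.50 (SE 0.24), Cd79b by 0.30 and Cd22 by -0.23. Cxcr5 was dim, with a mean log2 level of -3.93 in KO and -5.49 in WT samples. So was Pax5, at -4.71 in KO and -4.21 in WT samples. Ms4a1 averaged -1.34 in KO and -3.00 in WT samples.

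Of 8 monocyte markers, 0 passed and 6 were higher in KO, with a median difference of 0.29 and a summed level of 46.4 to 130 in KO and 32.8 to 116 in WT samples. The levels of Ly6c2 and Plac8 were highest in the samples numbered 1, as those of Ciita were. Of 12 T and NK cell markers, 0 passed, 11 were higher in KO and 9 were higher in all 4 pairs, with a median difference of 0.52. Of all genes, 48.5% were higher in KO and 7.39% were higher in all 4 pairs. Some of these markers were dim, such as Cd247, with a mean of -2.81 in KO and -3.86 in WT samples. The 2 brightest, Nkg7 and Gzma, were higher in KO in all 4 pairs too, though the groups overlapped. Nkg7 differed by 0.52 (SE 0.39) and Gzma by 1.21 (SE 0.71), with a limma adjusted p of 0.9999 for each. The summed level of the T and NK cell markers was 13.6 to 44.3 in KO and 9.24 to 24.7 in WT samples. Over the lists of regulators, processing, costimulation, alternative activation and cell type markers, 1 gene had an unadjusted p under 0.05, the monocyte marker Fn1, which encodes fibronectin, with a difference of -0.43 (SE 0.17). The part of any of these cells in the class II values was not tested.

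**Figure D5:**
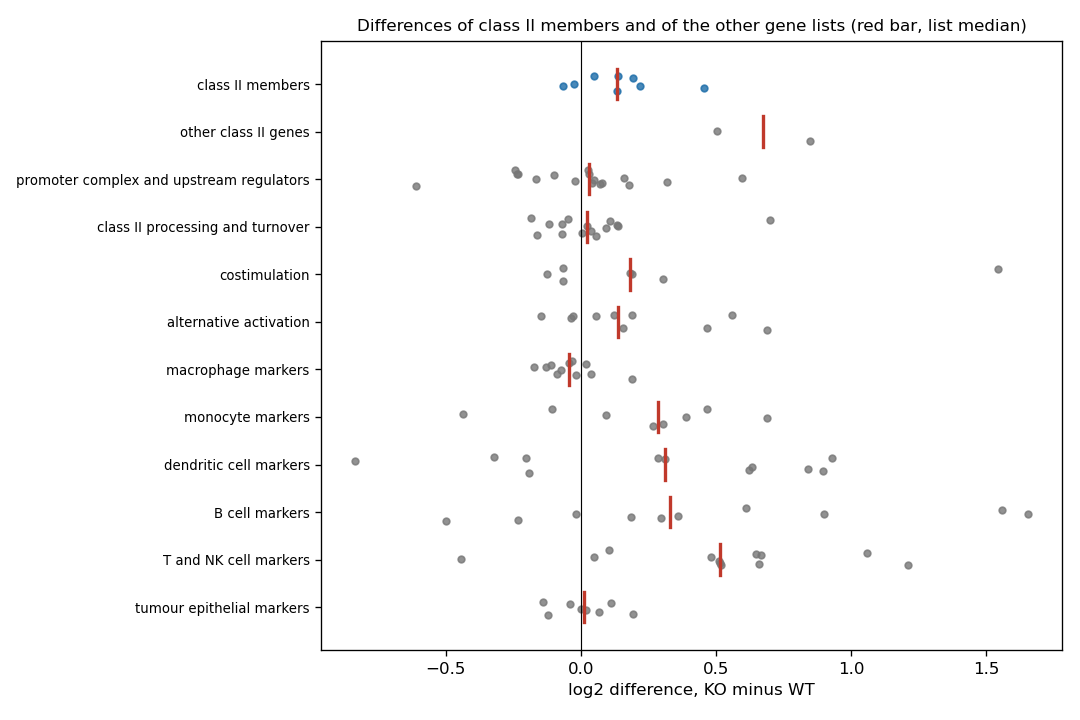
Log2 difference of KO minus WT for each tested gene of the class II members (blue) and of 11 other gene lists (grey), with each list's median as a red bar. Members lie between -0.07 and 0.46, and no gene shown passed an adjusted p of 0.05.

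Among the 13461 tested genes with a symbol, those whose values over the 8 samples were most like the mean of H2-Aa, H2-Ab1 and Cd74 were Map3k14, Ctdp1, Rbck1, Ctss, Ripk3, Bcl2a1c, Zbtb7a and Tlr2, with r from 0.97 to 0.99. The most opposite of them were Afap1l1, Ippk, Eva1a and Kcnn1, with r from -0.98 to -0.97. All but Ippk were dim: levels ran from -7.95 to -1.14 for Eva1a, -4.05 to -3.16 for Kcnn1 and -3.04 to -1.03 for Afap1l1. Map3k14, which encodes the kinase NIK, had levels of 0.22, -0.45, -0.13 and -1.11 in KO samples, against -0.21, -0.01, -0.50 and -1.80 in WT samples. Tlr2, a receptor for bacterial lipoproteins, had 3.95, 3.46, 3.95 and 2.93 in KO samples and 3.84, 3.90, 3.83 and 2.65 in WT samples. The median r was 0.88 for the 11 macrophage markers and -0.57 for the 8 epithelial markers, all 8 of them negative, against 0.11 over all genes.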

How the data were processed

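The authors used 1-colour Agilent arrays, per the file headers, and read the spots with Agilent software, Feature Extraction, in version 10.7.1.1. Version 10.5 stands in the submitters' processing notes. The deposited scanner files give the processed intensity of each spot, already background-corrected by that software, and flag outlying spots and those well above background. The authors also deposited a table of intensity values of unstated scale and centring, with column medians of 92 to 94. Over 26968 probes, its array-to-array differences had an r of 0.9987 with quantile-normalized median signal. It served as an alternative only.

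Control and outlier spots were left out, the log2 processed signal was averaged over spots of the same probe, and the 75th percentile of the array was taken off. No spot was saturated (0 on each array). A probe had to be well above background on 4 or more of the 8 arrays to enter the test (27165 of 41174), with the brightest of them read for each gene. Accessions were looked up in RefSeq genes of GRCm38.p6, which named 25097 probes and left 16077 unnamed. The comparison of KO with WT used R 4.3.3 and limma 3.58.1 (lmFit, then eBayes). Tests were two-sided and adjusted over all 20879 genes by Benjamini-Hochberg. On simulated data with known changes the test called small changes less often than large ones, as any such test does. The simulated samples varied independently, without the likeness of same-numbered samples, so they do not give the power in these data. A gene that does not pass is not shown to be equal. The number of arrays, 4 per group, limits the precision.

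The members and all gene lists were chosen with earlier results of these data known. The text names all members, up to 3 genes of each other list by smallest unadjusted p, the 2 brightest of each marker list, the 8 genes most like and 4 most opposite to the class II chains and Cd74, Atf3, Adgre1 and Ptprc. Of those the rule allows, some are not reported here, and Ctss falls under the likeness part. Irf8, Ifngr1, Rfx5 and Rfxap stand outside the rule and were chosen after their values were seen.

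The labels do not say what a sample number shares. Across genes, the deviations of same-numbered KO and WT samples from their group means had r of 0.30, 0.14, 0.70 and 0.51. All were over the limit of 0.1. KO sample 4 with WT sample 2, at 0.15, and KO sample 2 with WT sample 4, at 0.14, were over it too. The numbers 1, 3 and 4 thus pair the samples, while the samples numbered 2 were about as alike as these mismatched ones.

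Alternatives were normexp with an offset of 50, quantile normalization, bright probes or macrophage markers as scale, other filters on dim probes, the deposited table, the mean of a gene's probes, slide or sample number as a block, each slide alone, eBayes with trend and robust, and leaving out samples.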

Additional observations from a re-analysis of the deposited data

Results flagged for a closer look

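Of 110 groups of 4 samples examined, 9 had a sample that stood apart from the other 3 by Dixon's criterion, and chance flags about 1 in 20 groups. Of the class II members, H2-Aa was at 5.91 in WT sample 4, against 6.43 to 6.47 in the other WT samples, and H2-DMb1 at 4.07, against 4.90 to 5.03. WT sample 4 also stood apart for 4 genes that were named because they follow or oppose the class II chains. Ctss was at 6.38 there, against 6.90 to 6.99, Zbtb7a at 0.68, against 1.82 to 1.86, and Tlr2 at 2.65, against 3.83 to 3.90. Ippk was at 2.41, against 1.15 to 1.30. Atf3 was at 5.51 in KO sample 1, against 4.86 to 4.96 in the other KO samples. Siglech, a dim dendritic cell marker, was at -5.59 in KO sample 3, against -5.09 to -5.01. Cxcr5, a dim B cell marker, was at -3.86 in WT sample 2, against -6.27 to -5.88.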

How the results depend on the processing

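No class II member passed an adjusted p of 0.05 under any of 22 alternatives, and the smallest adjusted p among them was 0.72, with the replicate block for H2-Oa. The count of genes called over the whole array was 0 under 21 alternatives and 1 without KO sample 1. With the replicate block, which pairs same-numbered samples, 0 genes passed and 1580 had an unadjusted p under 0.05, against 701 without it, and it changed no other call. Over 8 members and 22 alternatives, 150 of 176 differences kept their sign and 26 changed it, none of them for Cd74. Left-out samples moved the number of members higher in KO between 1 and 8 and the median difference between -0.135 and 0.313, the lowest of both without WT sample 4. That median was -0.0253 without KO sample 1. On slide 1 alone the number was 4 and the median -0.0172, and on slide 2 alone 7 and 0.207. Normexp gave a median of 0.307 while moving that of all genes to -0.14. Leaving out 1 sample gave -0.163 to 0.0897 for H2-Aa, -0.248 to 0.237 for H2-Ab1, -0.107 to 0.326 for H2-DMa, -0.0899 to 0.325 for H2-DMb1, -0.0803 to 0.836 for H2-Oa, -0.304 to 0.25 for H2-Ob, -0.316 to 0.57 for Ciita and 0.0677 to 0.32 for Cd74, whose lowest value came without WT sample 4. H2-Aa changed sign with normexp (0.227), the deposited table (0.0614), slide 2 alone (0.0627) and macrophage markers as scale (0.0115). H2-Ab1 did so with the deposited table (-0.00251) and slide 1 alone (-0.151), and Ciita with slide 1 alone (-0.169). Without both samples numbered 4, an alternative chosen after seeing the data, as was the macrophage scale, H2-Ab1 was -0.059, H2-Ob 0.0345 and Ciita -0.033. The cause was not tested. With 4 samples per group, differences within these ranges could not be told from 0. H2-Ob, H2-Oa and Ciita were measured least precisely.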
